A study of Mus musculus with 4 samples.

Results

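Intraflagellar transport, BBSome and transition zone genes build and maintain the primary cilium and are also used by motile cilia. They were examined here in mouse embryos at E16.5, from RNA of the whole lung, as a contrast to a list of genes taken as needed only for ciliary beating. The set was defined by a list of 48 gene symbols that uses no measured value but was drawn up with earlier results of these data known, and 48 of the 48 were found among the 22556 genes of the table. The study examined the part played in ciliated cell differentiation by STK11, a serine/threonine kinase and tumor suppressor. There were 2 Control libraries (Shh-Cre; Stk11F/+) and 2 Shh-Stk11 libraries (Shh-Cre; Stk11F/F), so both groups carried the Shh-Cre driver and at least 1 floxed Stk11 allele, and the Controls were heterozygous for the deletion rather than wild type. Shh-Cre acts in the endoderm from which the lung epithelium forms, whereas RNA came from the whole organ, where mesenchyme, vessels and blood kept Stk11. The strain was given as C57BL/6 by the labels and as a mixed background by the study's methods, and the sex and litter of these libraries were not in the labels.

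A cilium is assembled by trains of IFT particles that kinesin motors move to the tip and a dynein motor returns to the base. IFT-B carries building material outward, IFT-A works in the return journey and in the entry of membrane proteins, and the BBSome is a coat that moves signalling receptors across the transition zone, the gate at the base of the cilium. Most cell types of the fetal lung can form a primary cilium, which serves Hedgehog signalling among other pathways, while airway multiciliated cells use the same transport machinery beside dynein arms, radial spokes and other parts that only motile cilia have.

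RFX transcription factors bind an element called the X-box in promoters of many ciliary genes. RefSeq promoter windows (GRCm38.p6, 250 bases before to 50 after a transcript start) were matched for 42 of the 48 genes. The motif searched held the pairs GT, CC, GG and AC in this order, each followed by 2 bases of any kind before the next, and it is its own reverse complement. It was present for 11 of the 42 genes (26.2%), against 2.16% of the 27025 genes with a window and 2.78% of the tested genes. Among motile-only genes the share was 15.6% (5 of 32), and among other primary cilium genes 16.7% (8 of 48). The half-site GTTGCC, on either strand and partly inside the longer motif, was present for 20 of the 42 genes (47.6%), against 14.1% of all genes, 50% of motile-only genes and 31.2% of other primary cilium genes. In 3 of the genes, the whole stretch around the X-box lay before the annotated start of the gene, and these stretches are shown because the motif can be read there in its promoter setting. All are on the plus strand, written 5′ to 3′, with the motif in capitals. They are from chr5:124598647-124598740 (Tctn2), chr16:49699167-49699260 (Ift57) and chr5:65199622-65199695 (Wdr19).
Tctn2: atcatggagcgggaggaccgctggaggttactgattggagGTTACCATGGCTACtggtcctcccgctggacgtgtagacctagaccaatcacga
Ift57: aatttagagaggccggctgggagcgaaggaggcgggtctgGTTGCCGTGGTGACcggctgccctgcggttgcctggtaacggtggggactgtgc
Wdr19: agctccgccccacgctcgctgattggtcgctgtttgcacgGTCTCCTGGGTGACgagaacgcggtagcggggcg
The first base of the motif was at -62 from the start in Tctn2, at -87 in Ift57 and at -34 in Wdr19. A match of letters is not evidence of binding.

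The libraries were comparable in depth, with 30.9 to 37.5 M reads as estimated from the steps of the low FPKM values. Stk11 was at 43.99 and 45.5 FPKM in the Control libraries and 29.5 and 25.95 FPKM in the Shh-Stk11 libraries (log2 fold change -0.69, limma adjusted p 0.0499). Its log2 fold change lay between -0.78 and -0.55 in the alternatives. The call was absent from 12 of the 14 alternatives, in which the adjusted p reached 0.26. Ddx3y, on the Y chromosome, reached 23.5 FPKM in Shh-Stk11 2 and no more than 0.0285 FPKM elsewhere. Xist was at 65.1 and 90.7 FPKM in the Controls, 169 FPKM in Shh-Stk11 1 and 0.239 FPKM in Shh-Stk11 2. By these genes Shh-Stk11 2 read as male and the others as female, so sex was mixed within the Shh-Stk11 group only. Defining markers of lung epithelium and of its neighbouring tissues were present in every library, and heart muscle markers summed to between 58.2 and 264 FPKM, with overlapping groups.

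None of the 48 transport and transition zone genes passed the test between the genotypes, which does not show that their levels were equal. Log2 fold changes, given as Shh-Stk11 minus Control on the log2(FPKM + 0.1) scale, had a median of -0.12, against -0.05 for the 13770 genes tested, and ranged from -0.60 for Traf3ip1 to 0.43 for Cep290. All 48 genes passed the filter of a mean of 0.5 FPKM. At an adjusted p of 0.05 in limma, 0 of the 48 were lower and 0 were higher, where 1.29% of all tested genes were lower and 0.980% were higher. At an unadjusted p under 0.05, 7 were lower (14.6%, against 7.18% of all genes) and 0 were higher (8.04% of all genes). The count of lower genes was between 7 and 10 in the alternatives that kept every library, and it fell when any 1 library was left out. With median-ratio scaling, and without the variance trend, 1 gene was higher. Shares over all genes were not counted in the alternatives. Both Shh-Stk11 libraries lay below both Controls for 24 genes (50%, against 27.6% of all genes) and above both for 4 genes (19.2% of all genes), and the groups overlapped for the other 20. The log2 fold change was below 0 for 38 of the 48 (79.2%, against 58.3% of all genes) and at or below -0.25 for 17 of them (17.6% of all genes).

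For most of the 48 genes the data bounded the difference to less than 1 log2 unit. The SE of a log2 fold change lay between 0.118 and 0.375. The 95% interval lay within 1 log2 unit of 0 for 45 of the 48 genes, so that a fall to 50% was inside the interval of only Kif17 and Nphp4, and a 2-fold rise inside that of only Cep290. The absolute log2 difference between replicates had a median of 0.144 in Control and 0.114 in Shh-Stk11 lungs over the 48 genes, and 28 of them differed between the genotypes by less than 0.25. Relative to the Control mean, the median of the 48 genes was -0.14 in Shh-Stk11 1 and -0.11 in Shh-Stk11 2.

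**Figure D1:**
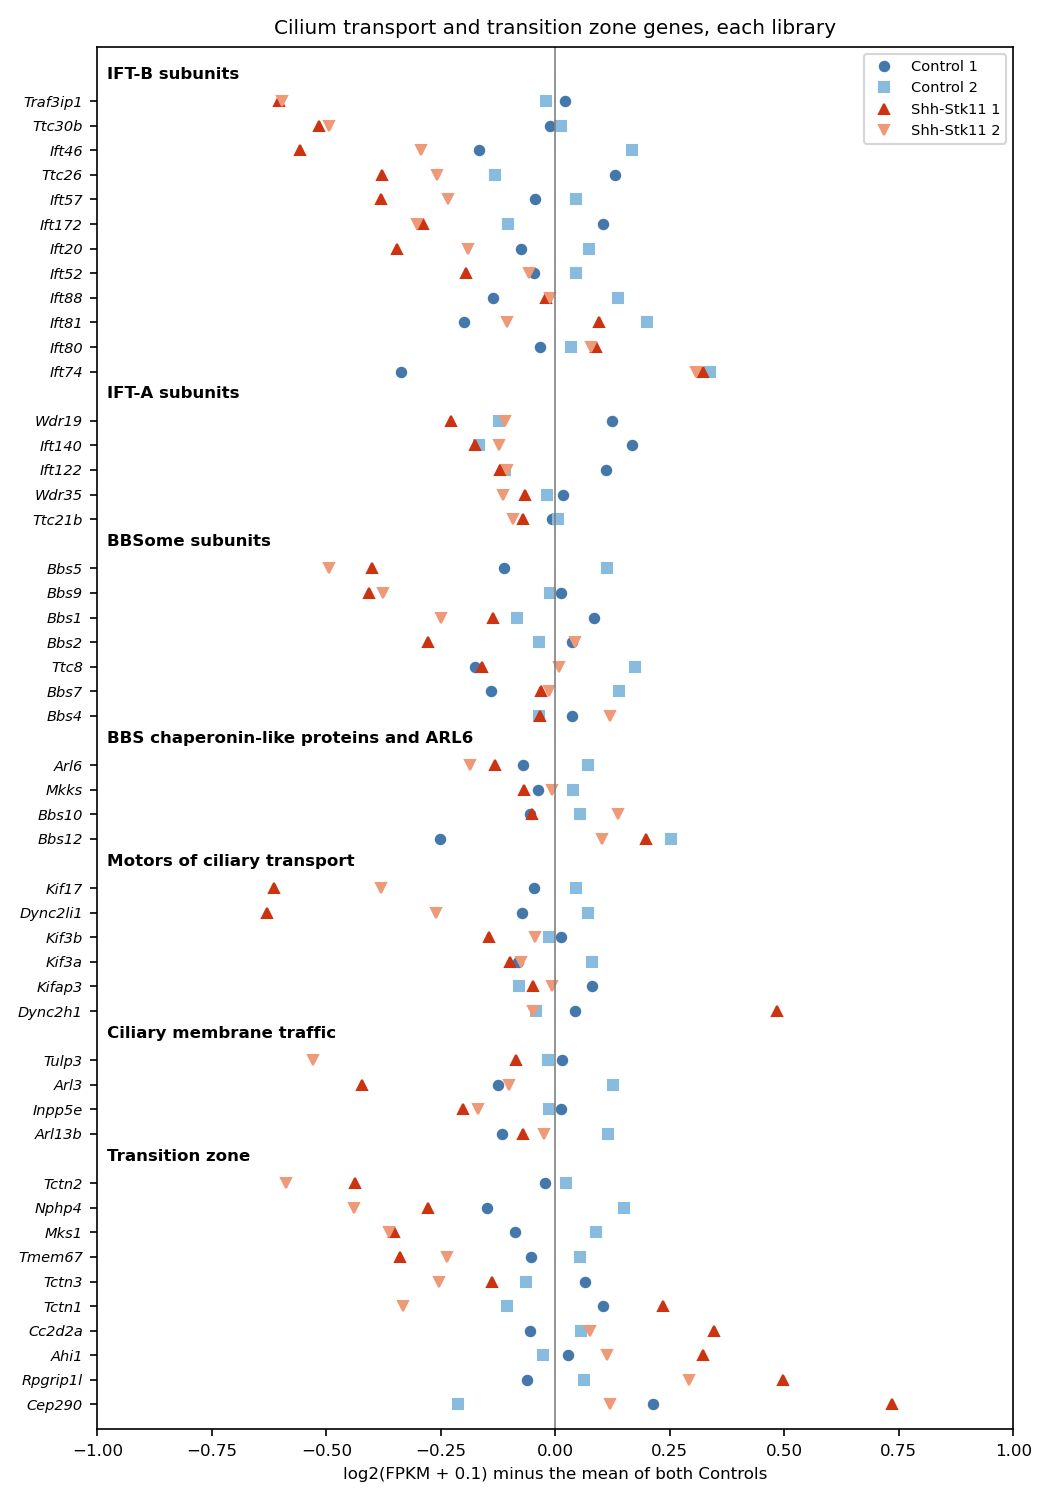
Each row is 1 of the 48 genes, grouped by role, and each symbol is 1 library, placed by its log2(FPKM + 0.1) minus the mean of both Controls. Both Shh-Stk11 libraries lie left of both Controls in 24 rows and right of both in 4, and differences between replicates can be as large as those between genotypes, as for Ift74.

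The IFT-B complex had the lowest median of the 7 roles, -0.28 over 12 genes, with 8 genes lower and 1 higher without overlap, where the shares over all tested genes were 27.6% and 19.2%. Traf3ip1 encodes IFT54, a subunit that binds microtubules and TRAF3. It was at 9.38 and 9.11 FPKM in the Control libraries and 6.05 and 6.08 FPKM in the Shh-Stk11 libraries (log2 fold change -0.60, SE 0.127, limma adjusted p 0.0751). Replicates nearly coincided, and the genotypes were well apart. Ttc30b, one of the genes for the IFT70 subunit, was at 11.3 and 11.5 FPKM in the Control libraries and 7.96 and 8.08 FPKM in the Shh-Stk11 libraries (log2 fold change -0.51, SE 0.122, limma adjusted p 0.103). It shared 34.8% of the 50-base windows of its transcript with its paralogs Ttc30a1 and Ttc30a2, so that reads could have been divided among them. Ift46, a subunit known for bringing outer dynein arms into motile cilia, was at 27.0 and 34.0 FPKM in the Control libraries and 20.5 and 24.7 FPKM in the Shh-Stk11 libraries (log2 fold change -0.43, SE 0.164, limma adjusted p 0.286). With 1 library left out, its log2 fold change ranged from -0.59 without Control 1 to -0.26 without Control 2. These 3 genes were the only IFT-B genes with an unadjusted limma p under 0.05 (25% of the 12, against 7.18% of all genes lower at that p).

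The other IFT-B genes had an unadjusted limma p of at least 0.05. Ift20, which is also found at the Golgi, was the most highly expressed of them at 90.9 and 100.8 FPKM in the Controls, and was at 75.3 and 83.8 FPKM in the Shh-Stk11 libraries (log2 fold change -0.27, SE 0.133, limma adjusted p 0.414). Ift88, the Polaris protein whose loss removes cilia, had a log2 fold change of -0.02 (95% interval -0.36 to 0.33), and the groups overlapped. Ift81 and Ift74 encode partners that bind tubulin together. Ift81 had a log2 fold change of -0.005. Ift74 was at 5.43 and 8.72 FPKM in the Control libraries and 8.64 and 8.54 FPKM in the Shh-Stk11 libraries (log2 fold change 0.31, SE 0.226, limma adjusted p 0.571). Control 1 alone stood apart for Ift74, and the log2 fold change was -0.02 without it and 0.65 without Control 2. Ift80 was the IFT-B gene that was higher without overlap, by 0.08. Ttc26, Ift57, Ift172 and Ift52 were lower without overlap, as Ift20 was (27.6% of all genes). Their log2 fold changes were -0.32, -0.31, -0.30 and -0.13 in that order.

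The IFT-A complex had a median log2 fold change of -0.11. All 5 genes had a log2 fold change below 0, from -0.17 to -0.08 (58.3% of all genes were below 0), with an unadjusted limma p under 0.05 for 0 of them (7.18% of all genes were lower at that p). Wdr19, which encodes IFT144, was at 6.38 and 5.36 FPKM in the Control libraries and 4.97 and 5.41 FPKM in the Shh-Stk11 libraries (log2 fold change -0.17, SE 0.155, limma adjusted p 0.663), so the groups overlapped, and the log2 fold change was -0.045 without Control 1 and -0.29 without Control 2. Wdr35 (IFT121) and Ttc21b (IFT139) were lower without overlap (27.6% of all genes), by 0.09 and 0.08 on the log2 scale. With the trend on transcript length and GC content removed, the IFT-A median was -0.23 and the IFT-B median -0.25, and Ttc21b was at -0.39 (limma adjusted p 0.188).

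The BBSome had a median log2 fold change of -0.12 over 7 genes. Relative to the Control mean, its median was -0.16 in Shh-Stk11 1 and -0.013 in Shh-Stk11 2. Bbs5, the subunit that binds phosphoinositides, was at 7.82 and 9.16 FPKM in the Control libraries and 6.39 and 5.98 FPKM in the Shh-Stk11 libraries (log2 fold change -0.45, SE 0.145, limma adjusted p 0.20). Bbs9, a scaffold subunit, was at 8.33 and 8.19 FPKM in the Control libraries and 6.20 and 6.34 FPKM in the Shh-Stk11 libraries (log2 fold change -0.39, SE 0.128, limma adjusted p 0.206). For these genes both Shh-Stk11 libraries were below both Controls, as they were for Bbs1, whose log2 fold change was -0.19. The share lower without overlap was thus 42.9% of the 7 genes, against 27.6% of all genes. Bbs4, another subunit of the coat, was at 7.17 and 6.81 FPKM in the Control libraries and 6.82 and 7.59 FPKM in the Shh-Stk11 libraries (log2 fold change 0.04, SE 0.136, limma adjusted p 0.919). The other 3 subunits, Bbs2, Bbs7 and Ttc8, lay between -0.12 and -0.02 with overlapping groups. Subunits of the same coat thus had log2 fold changes from -0.45 to 0.04. The upper end, Bbs4, was at -0.091 with the length and GC trend removed and at -0.034 without Shh-Stk11 2.

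Proteins that assemble or recruit the BBSome had a median of 0.002 over 4 genes. Arl6, the small GTPase that places the coat on membranes, was at 12.5 and 13.8 FPKM in the Control libraries and 11.98 and 11.5 FPKM in the Shh-Stk11 libraries (log2 fold change -0.16, SE 0.126, limma adjusted p 0.608). It was the only gene of the 4 without overlap (25%, near the 27.6% of all genes that were lower without overlap). Its log2 fold change was -0.23 without Control 1 and -0.087 without Control 2. Bbs12, a chaperonin-like protein, was at 4.24 and 6.06 FPKM in the Control libraries and 5.83 and 5.45 FPKM in the Shh-Stk11 libraries (log2 fold change 0.15, SE 0.197, limma adjusted p 0.771). Its Controls were further apart than the genotypes, and the log2 fold change was -0.10 without Control 1 and 0.40 without Control 2. The chaperonin-like genes Mkks and Bbs10 had log2 fold changes of -0.04 and 0.04, and Mkks shared 28.6% of its windows with overlapping annotated transcripts.

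Of the 6 motor genes, Dync2li1, which encodes a light intermediate chain of the dynein that returns IFT particles, was at 39.1 and 43.2 FPKM in the Control libraries and 26.5 and 34.3 FPKM in the Shh-Stk11 libraries (log2 fold change -0.45, SE 0.158, limma adjusted p 0.246), which was -0.26 when Shh-Stk11 1 and -0.63 when Shh-Stk11 2 was left out. Its heavy chain partner Dync2h1 was at 0.834 and 0.781 FPKM in the Control libraries and 1.17 and 0.777 FPKM in the Shh-Stk11 libraries (log2 fold change 0.22, SE 0.297, limma adjusted p 0.780). Shh-Stk11 1 alone was high for Dync2h1, and the log2 fold change was -0.05 without it and 0.48 without Shh-Stk11 2. Kif17, a homodimeric kinesin, was at 0.766 and 0.823 FPKM in the Control libraries and 0.484 and 0.587 FPKM in the Shh-Stk11 libraries, or about 94 and 85 against 49 and 63 reads (log2 fold change -0.50, SE 0.299, limma adjusted p 0.501). As a low gene it depended on the pseudocount, with a log2 fold change of -0.23 at a pseudocount of 1. The heterotrimeric kinesin that drives outward transport, made of the products of Kif3a, Kif3b and Kifap3, had log2 fold changes of -0.09, -0.09 and -0.03. The 95% intervals of these 3 genes reached no lower than -0.39 and no higher than 0.27.

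Ciliary membrane traffic was represented by 4 genes with a median of -0.22. Relative to the Control mean, their median was -0.144 in Shh-Stk11 1 and -0.136 in Shh-Stk11 2, each nearer to no change. Tulp3, which links IFT-A to receptors bound for the cilium, was at 15.1 and 14.8 FPKM in the Control libraries and 14.04 and 10.3 FPKM in the Shh-Stk11 libraries (log2 fold change -0.31, SE 0.170, limma adjusted p 0.466). Only Shh-Stk11 2 was far below the Controls, and the log2 fold change was -0.09 without it and -0.53 without Shh-Stk11 1. Arl3, a small GTPase that releases lipidated cargo, had the highest level of the 48 genes, at 105.2 and 125.3 FPKM in the Controls and 85.7 and 107 FPKM in the Shh-Stk11 libraries (log2 fold change -0.26, SE 0.166, limma adjusted p 0.520). With 1 library left out its log2 fold change was -0.42 when Shh-Stk11 2 and -0.10 when Shh-Stk11 1 was the one omitted, and after removal of the length and GC trend it was -0.12. The groups overlapped for Arl3 and for Arl13b (-0.05), a GTPase used as a marker of the ciliary membrane. Inpp5e, the phosphoinositide phosphatase of that membrane, was lower without overlap (-0.19), as was Tulp3 (50% of the 4 genes, against 27.6% of all genes). Inpp5e shared 20.1% of its windows with Pmpca.

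The 10 transition zone genes had log2 fold changes on both sides of 0, with 5 lower and 3 higher without overlap (27.6% and 19.2% of all genes) and a median of -0.12. Relative to the Control mean, their median was 0.05 in Shh-Stk11 1 and -0.25 in Shh-Stk11 2. Tctn2, a tectonic of the gate complex whose promoter is shown above, was at 7.99 and 8.25 FPKM in the Control libraries and 5.96 and 5.36 FPKM in the Shh-Stk11 libraries (log2 fold change -0.51, SE 0.136, limma adjusted p 0.126). Mks1, Tmem67, Tctn3 and Nphp4 were the others lower without overlap, by 0.20 to 0.36 on the log2 scale. The higher ones were Rpgrip1l, Ahi1 and Cc2d2a, with log2 fold changes of 0.39, 0.22 and 0.21.

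Rpgrip1l, a scaffold of the gate, was at 2.59 and 2.83 FPKM in the Control libraries and 3.86 and 3.34 FPKM in the Shh-Stk11 libraries (SE 0.171, limma adjusted p 0.351). Cep290, a long coiled-coil protein that links the membrane to the axoneme at the gate, was the lowest of the 48 genes at 0.552 and 0.386 FPKM in the Controls and 0.837 and 0.511 FPKM in the Shh-Stk11 libraries (log2 fold change 0.43, SE 0.375, limma adjusted p 0.645). Its groups overlapped, and the log2 fold change was 0.12 when Shh-Stk11 1 was left out, 0.73 when Shh-Stk11 2 was, and 0.18 at a pseudocount of 1. Between 8.93% and 11.9% of the windows of Cep290, Tmem67 and Arl3 were shared with other annotated genes. Tctn1 overlapped too, and shared 26.6% of its windows, nearly all with its neighbour Hvcn1. The tectonics Tctn1, Tctn2 and Tctn3 had log2 fold changes of -0.05, -0.51 and -0.20.

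**Figure D2:**
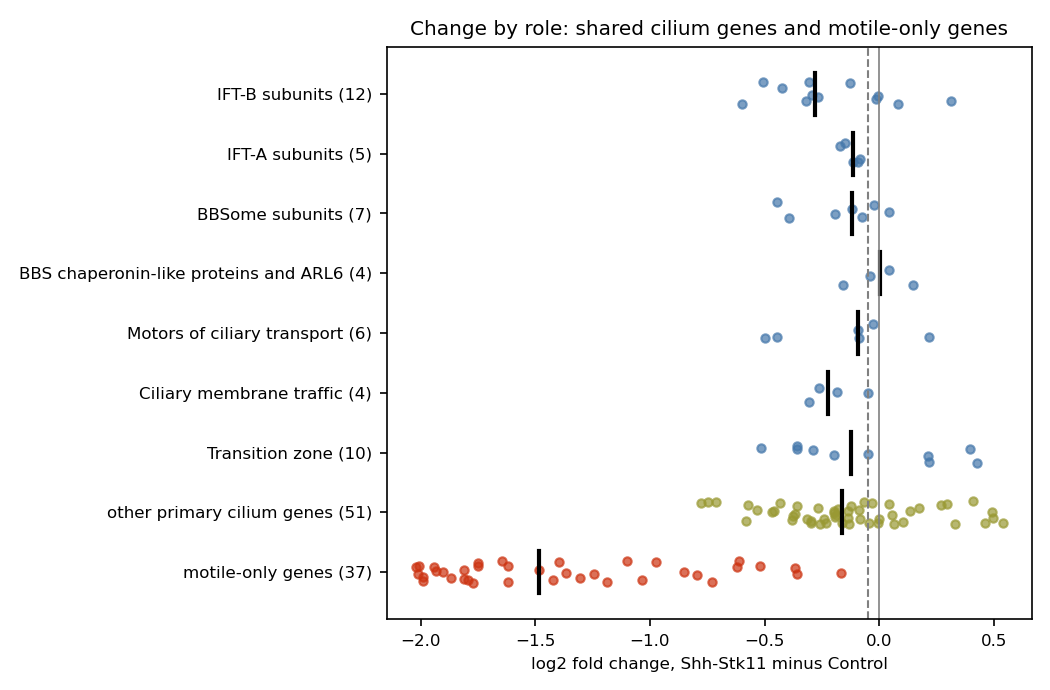
Each point is the log2 fold change of 1 tested gene, Shh-Stk11 minus Control, in rows by role with the number of genes in parentheses, black bars mark medians and the dashed line is the median of all 13770 tested genes. Medians of the roles lie between -0.28 and 0.002, whereas that of the motile-only genes is -1.48.

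Genes listed here as motile-only were compared in the same libraries, and their absence from other cilia or cells was not examined. Of the 41 found, 37 were tested, and all 37 had a log2 fold change below 0, with a median of -1.48. The limma call at an adjusted p of 0.05 was made for 25 of them (67.6%), each lower, but for 2 with replicate number as a block and for 0 with no filter on low values. Fewer were also called when any 1 library was left out. The median log2 fold change was -1.48 with the block, -1.40 with no filter and -1.69 to -1.41 with 1 library left out. The largest falls were those of Lrrc23, a radial spoke protein (-2.02), Fam183b (-2.01) and Ccdc113 (-2.005). At the other end, Ccdc39 (-0.37), Gas8 (-0.36) and Dnalc1 (-0.17) lay within the range of the 48 transport and transition zone genes, as did Dnahc6 (-0.52), and 0 of these 4 were called. The difference between the sets was not tested. Relative to the Control mean, the motile-only median was -1.43 in Shh-Stk11 1 and -1.69 in Shh-Stk11 2.

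**Figure D3:**
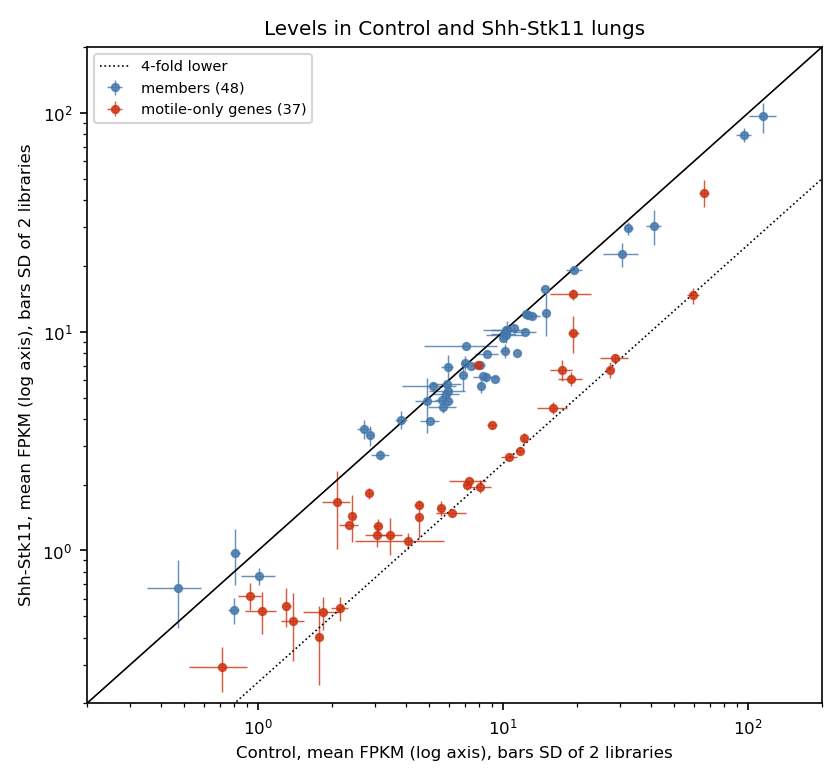
Mean FPKM in Control (horizontal) and Shh-Stk11 lungs (vertical) on log axes, with the SD of 2 libraries as bars. The 48 transport and transition zone genes (blue) lie close to the line of equal levels and mostly below it, whereas the 37 motile-only genes (red) lie below it, many near the dotted line of 4-fold lower levels.

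Further primary cilium genes outside the set were described in the same way. Their log2 fold change had a median of -0.16 over the 51 tested of 52 such genes, and 28 were lower (54.9%, against 27.6% of all genes) and 8 higher (19.2% of all genes) without overlap. At an adjusted p of 0.05 in limma, 1 was lower and 0 were higher, and at an unadjusted p under 0.05 there were 10 lower (19.6%, against 7.18% of all genes) and 1 higher. The one called was Tmem107, a membrane protein of the transition zone, which fell from 27.0 and 31.7 to 16.7 and 17.4 FPKM, a log2 fold change of -0.78 (SE 0.132, limma adjusted p 0.0408), and which was no longer called when any 1 of the 4 libraries was left out. The largest positive value was that of Sclt1, a distal appendage gene of the basal body (log2 fold change 0.54, limma adjusted p 0.399). By role, the median was lowest among the other IFT, BBSome and dynein genes, where 9 of 12 were lower without overlap. The 10 basal body genes had a median of 0.20, with 7 above 0, and 2 were lower and 4 higher without overlap. Without the length and GC trend that median was 0.05.

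Of 12 transcription regulators of ciliary genes 11 were tested, Rfx4 being below the filter. Foxj1 and Myb, of the multiciliated program, fell (log2 fold change -1.71 and -1.37, limma adjusted p 0.00329 and 0.0249). Mcidas, listed as Gm6320, and Gmnc, listed as Gm606, had log2 fold changes of -1.22 and -0.57 (limma adjusted p 0.0586 and 0.512). None of the RFX factors, which bind the X-box, passed the test. Rfx2 was at 2.38 and 2.16 FPKM in the Controls and 1.85 and 1.58 FPKM in the Shh-Stk11 libraries (log2 fold change -0.39, limma adjusted p 0.432). Rfx3 was at 2.40 and 2.15 FPKM in the Controls and 4.13 and 3.35 FPKM in the Shh-Stk11 libraries (log2 fold change 0.69, limma adjusted p 0.134), and Rfx7 had a log2 fold change of 0.67 (limma adjusted p 0.111). With the trend on transcript length and GC content removed, these log2 fold changes were 0.28 for Rfx3 and 0.42 for Rfx7. Rfx1, Rfx5, E2f4 and Glis3 had log2 fold changes of -0.14, 0.13, -0.13 and -0.32. The 11 set genes with an X-box had a median log2 fold change of -0.19, with 6 lower without overlap, and the 31 without one had a median of -0.09, with 15 lower without overlap, which is a description only, beside 27.6% of all genes lower without overlap.

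Marker lists of the cell types in the lung were compared, counting genes whose groups did not overlap (27.6% of all genes lower, 19.2% higher). All 5 multiciliated cell markers were lower in Shh-Stk11 lungs without overlap, 4 of them past an adjusted p of 0.05 in limma, and their summed level was 42.9 and 45.5 FPKM in the Controls against 18.2 and 15.9 FPKM. Of 8 mesenchymal markers, 5 were lower without overlap and the median log2 fold change was -0.29, with sums of 2134 to 2350 FPKM in the Controls and 1703 to 1867 FPKM in the Shh-Stk11 libraries. Of 6 endothelial markers, 5 were lower without overlap (median -0.34), with sums of 475 to 568 and 389 to 412 FPKM. Of 7 red blood cell markers, 5 were lower without overlap (median -0.52). The adjusted p was under 0.05 in limma for 0 mesenchymal, 0 endothelial and 1 red blood cell marker. The 7 lung epithelial markers had a median of 0.20, with 4 higher and 2 lower without overlap, while their sum, mostly Sftpc, went from 16360 to 18000 FPKM in the Controls to 8683 to 12750 FPKM. The 5 immune cell markers had a median of 0.08. The 5 tested heart muscle markers had a median of -0.86 and were all below 0, and the groups overlapped for each of them. The part of these cell types in the results was not tested. In whole lungs, fewer cells of a type and less RNA per cell cannot be told apart.

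The differences also followed transcript length and GC content. Across the 48 genes, the log2 fold change had a Pearson correlation of 0.40 with log2 transcript length and of -0.51 with GC content (Spearman 0.31 and -0.54), as a description over genes that share the same 4 libraries. Over all 13631 tested genes with an annotated transcript the Pearson values were 0.25 and -0.22 and the Spearman values 0.37 and -0.36, so that the Pearson correlation with length was higher in the set than over all genes and the Spearman correlation lower. The 4 genes that were higher without overlap had transcripts of 4851 to 7616 bases, while the median over the set was 3575.5 bases. With the trend on length and GC content removed from each library, the median of the 48 genes was -0.13, against -0.003 for all tested genes. At an unadjusted p under 0.05 in limma, 10 genes of the set were lower and 0 higher under that correction. The share over all genes was not counted there, so these counts have no background beside them. The medians of the membrane traffic and transition zone genes were then -0.11 and -0.06. Under that correction Rpgrip1l was at 0.10, Cep290 at -0.02 and Ift80 at -0.25, and the genes higher without overlap numbered 1 instead of 4. Bbs5 was then the lowest of the 48 genes, at -0.555, followed by Traf3ip1 at -0.50, Ttc30b at -0.435 and Tctn2 at -0.41.

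**Figure D4:**
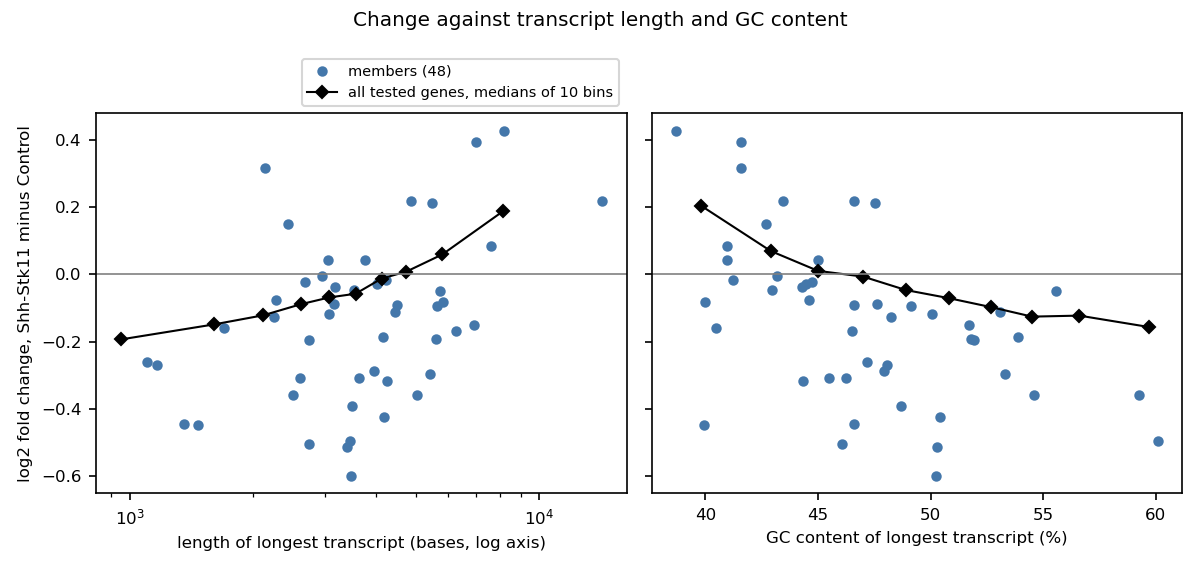
Log2 fold change, Shh-Stk11 minus Control, of the 48 genes (blue points) against the length of the longest transcript (left, log axis) and its GC content (right), with medians of 10 bins of all tested genes in black. The medians of all genes go from -0.19 to 0.19 with length and from 0.20 to -0.16 with GC content.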

How the data were processed

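Total RNA of E16.5 lungs was sequenced as single-end 50-base reads. The authors deposited a single table with the FPKM of each gene in each library. Their processing notes name TopHat2 2.0.13, Cufflinks 2.2.1 and the builds GRCm38 and mm9 without giving roles, so that no gene coordinates are given beyond RefSeq promoter windows. The 13770 genes whose mean reached 0.5 FPKM were tested two-sided with limma 3.58.1 in R 4.3.3 (lmFit, eBayes with a trend) on log2(FPKM + 0.1), which understates changes of low genes. The Benjamini-Hochberg adjustment ran over all tested genes (threshold 0.05). With 2 against 2 libraries, an exact permutation p is at least 0.333. The study's methods call the replicates biologically independent. Depth was estimated from low FPKM values of 266 to 276 genes per library, of which 71.2% to 75.6% lay within 0.1 read of whole reads. Transcript length, GC content and shared 50-base windows came from GENCODE M21, to which 20242 symbols matched directly, 1904 through synonyms and 410 not at all.

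The set and all gene lists were chosen with earlier results of these data known. Genes were named by rule: those with an unadjusted p under 0.05, the largest change in each direction per role, the highest and lowest level, the calls of other lists up to the 3 largest (otherwise the largest change in each direction), and all tested regulators. Other genes were named after their values were seen. The alternatives varied the pseudocount, filter, scaling, variance trend, length and GC trend, replicate block and the libraries used.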

Additional observations from a re-analysis of the deposited data

How the results depend on the processing

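In all 14 alternatives, 0 of the genes tested (38 with the filter of 5 FPKM, 48 in the others) passed an adjusted p of 0.05, whose smallest value ranged from 0.0637 to 0.299 in limma, and the median log2 fold change stayed below 0. That median was -0.081 with median-ratio scaling and -0.16 to -0.11 when 1 library was left out (-0.16 without Control 1). Of 235 values recomputed for 17 named genes, 7 changed sign, in 5 genes that were not called: with length and GC trend removed Bbs4 was at -0.091, Dync2h1 at -0.15 and Cep290 at -0.018, and with 1 library left out Bbs4 ranged from -0.034 (without Shh-Stk11 2) to 0.12, Bbs12 from -0.10 (without Control 1) to 0.40, Ift74 from -0.022 (without Control 1) to 0.65 and Dync2h1 from -0.049 (without Shh-Stk11 1) to 0.48. Over all 48 genes, the sign changed for 7 with that trend removed (also Bbs2, Bbs7, Ift80 and Kif3a), for 5 with median-ratio scaling (Bbs7, Ift81, Ift88, Kifap3 and Mkks), for 3 to 6 with 1 library left out and for 0 in the other alternatives. Counts without overlap are larger by construction when a library is left out: the 24 lower genes became 26 to 34 and the 4 higher genes 7 to 12. The higher ones numbered 1 with the length and GC trend removed. These overlap counts were recomputed as alternatives chosen after seeing the data.

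Of the other primary cilium genes, 2 were lower in limma at pseudocount 0.01 and 2 in the test of genes reaching 5 FPKM (median -0.25 over 34 genes), and 0 with no filter, quantile normalization, no variance trend, the length and GC trend removed, or any library left out. Of the motile-only genes, 12 of 15 were called among genes reaching 5 FPKM (median -1.81), 0 with no filter, and 3 to 20 with 1 library left out, 4 without Control 1 and 3 without Control 2, where the lone Control is assumed to vary like the other group. Their median was -1.03 with a pseudocount of 1 and -1.69 to -1.41 with 1 library left out. The causes were not tested. Replicate numbers are shared by label only, and deviations of same-numbered libraries correlated at -0.114. With the replicate block, 0 of the 48 genes, 0 other primary cilium genes and 2 motile-only genes were called. With the crossed pairing, chosen after seeing the data, the counts were 0, 2 and 25. With 2 libraries per genotype the largest unadjusted p that was called was 0.00113, and the median SE of the 48 genes was 0.148.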
